A study of Mus musculus with 10 samples.

Results

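The 10 genes described here encode the machinery that displays peptides on MHC class I molecules: the heavy chains H2-K1, H2-D1 and H2-T23, their light chain B2m, the loading proteins Tap1, Tap2 and Tapbp, and the immunoproteasome subunits Psmb8, Psmb9 and Psmb10. They were taken by symbol from the authors' deposited table of 23337 genes, and all 10 had a row and an adjusted p-value. The samples were cardiomyocytes, the contracting cells of heart muscle. The GFP group (5 biological replicates per the labels) had received AAV9-cTNT-GFP and the dnMKL1 group (also 5) AAV9-cTNT-dnMKL1-GFP, where dnMKL1 is a dominant-negative form of MKL1, a coactivator of serum response factor (SRF). Mice of both groups were wild type, carried an adeno-associated virus vector of serotype 9 with GFP, were injected on postnatal day 1 at 5e+08 vector genomes per gram, and gave cells on postnatal day 14 by collagenase perfusion and fluorescence-activated sorting. The cardiac troponin T promoter (cTNT) restricts transgene expression largely to cardiomyocytes, and the labels do not give the sorting gate.

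MHC class I molecules show fragments of a cell's own proteins to cytotoxic T cells. Proteasomes cut proteins into peptides, the TAP transporter carries the peptides into the endoplasmic reticulum, and tapasin holds the empty class I molecule next to the transporter until a peptide fits. Interferons raise the transcripts of most of these genes, and the immunoproteasome subunits then replace the constitutive catalytic ones. Resting heart muscle cells are known for low class I display, whereas endothelial and immune cells carry much more.

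The table compares the groups and gives no values per library, so the levels below are group means. They were computed from the deposited base mean (a gene's count averaged over all libraries once the authors had scaled each for depth, here called normalized counts) and the fold change, with groups of equal size. Library totals estimated from the size factors ran from 8803005 to 17123500 counts with GFP and from 8835151 to 17228537 with dnMKL1. The direction of the comparison was read from Mkl1, from which dnMKL1 derives, at 9.80 (SE 0.15) on the log2 scale in the authors' deposited table, with implied means of 83.9 and 74899 normalized counts, so positive values mean higher with dnMKL1. Cardiomyocyte transcripts dominated both groups, where 8 markers summed to 1243530 normalized counts with GFP and 741043 with dnMKL1. Under the authors' scaling 5 of the 8 fell and 0 rose, against 17.4% and 16.6% of all genes tested. Under the total-count scaling described below, Tnni3 lost its call, at -0.20, while Myl3, Myh6, Tnnt2 and Ryr2 kept theirs.

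Of the 10 genes, 4 rose (B2m, Tap1, Tap2 and Tapbp), 1 fell (Psmb10) and 5 did not pass, at a Benjamini-Hochberg adjusted Wald p-value under 0.05 in the authors' deposited table. Over all 14056 genes tested there, 16.6% were called higher, 17.4% lower and 34.1% in either direction. Under total-count scaling (both groups set to equal summed means, which adds 0.29 to each log2 fold change) 5 of the 10 were called higher and 0 lower, against 40.4%, 6.6% and 47% of all genes for higher, lower and either. With a minimum absolute log2 fold change of 1 only Tap1 remained called, against 4.65% higher, 2.05% lower and 6.7% in either direction. At an adjusted p-value under 0.01 Tap1, Tap2 and Tapbp were called higher and none of the 10 lower, against 11.9%, 13.4% and 25.2%. The median log2 fold change of the 10 genes was 0.49, against 0.021 over all genes tested. All 3 loading genes rose, 1 of the 4 class I chains rose, and 0 of the 3 immunoproteasome subunits rose by the authors' Wald test (0 positive before adjustment at the same threshold). Fewer cells of a type and less RNA per cell cannot be told apart in these bulk samples.

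**Figure D1:**
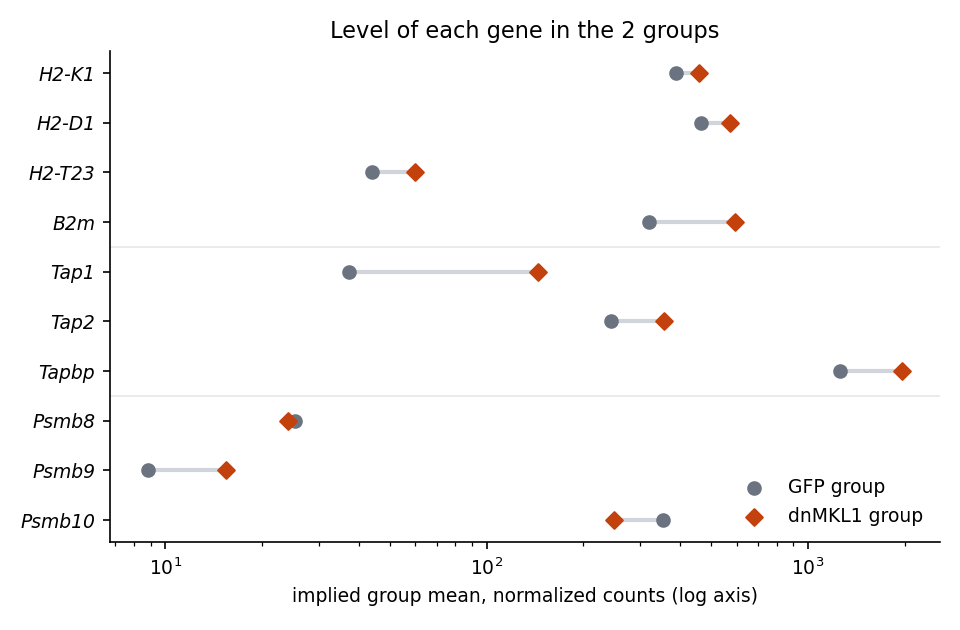
Implied group mean of each gene in normalized counts (log axis), for the GFP group (circles) and the dnMKL1 group (diamonds), ordered as class I chains, loading genes and immunoproteasome subunits. The widest gap is that of Tap1, from 37.2 to 144.9, and Psmb8 shows almost none, from 25.4 to 24.1.

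Sequences upstream of 4 of these genes are shown because B2m and Tap1 were called higher and H2-K1 and H2-D1 were not. Differences in change among the 4 were not tested. Of them, 3 (H2-K1, H2-D1 and B2m) carry motifs read by interferon and NF-kappa B factors. Each run holds the 250 bases before the RefSeq transcription start (GRCm38.p6), 5′ to 3′ on the gene's own strand. They cover chr17:34000348-34000597 (minus strand, H2-K1), chr17:35262844-35263093 (plus strand, H2-D1), chr2:122147437-122147686 (plus strand, B2m) and chr17:34187306-34187555 (plus strand, Tap1). Capitals mark the motif matches named after them.
H2-K1: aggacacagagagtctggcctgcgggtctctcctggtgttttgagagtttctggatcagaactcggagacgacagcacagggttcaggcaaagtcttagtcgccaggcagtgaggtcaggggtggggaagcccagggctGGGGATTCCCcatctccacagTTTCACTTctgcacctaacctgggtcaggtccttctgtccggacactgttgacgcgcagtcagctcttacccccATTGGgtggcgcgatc
H2-D1: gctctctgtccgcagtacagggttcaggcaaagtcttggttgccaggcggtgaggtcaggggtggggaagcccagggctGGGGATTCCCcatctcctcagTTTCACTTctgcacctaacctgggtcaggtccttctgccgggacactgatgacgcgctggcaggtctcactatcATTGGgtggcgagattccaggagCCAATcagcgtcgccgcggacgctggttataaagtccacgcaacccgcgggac
B2m: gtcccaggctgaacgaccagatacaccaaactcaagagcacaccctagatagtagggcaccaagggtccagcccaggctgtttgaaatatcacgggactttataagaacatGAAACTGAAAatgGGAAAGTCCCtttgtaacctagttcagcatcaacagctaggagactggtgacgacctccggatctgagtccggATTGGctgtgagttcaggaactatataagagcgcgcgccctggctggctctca
Tap1: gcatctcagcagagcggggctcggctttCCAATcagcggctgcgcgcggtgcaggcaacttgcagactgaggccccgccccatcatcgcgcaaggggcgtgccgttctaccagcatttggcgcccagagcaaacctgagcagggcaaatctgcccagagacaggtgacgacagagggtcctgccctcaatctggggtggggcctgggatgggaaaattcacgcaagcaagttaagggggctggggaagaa

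H2-K1 and H2-D1 both held the kappa B letters GGGGATTCCC, 111 and 171 bases before the start, followed by TTTCACTT, 90 and 150 bases before the start. The last is a match, on the other strand, to AANNGAAA, the core bound by interferon regulatory factors. B2m held GAAACTGAAA, 139 bases before the start, a full interferon-stimulated response element, which contains the core, and the kappa B match GGAAAGTCCC, 126 bases before it. CCAAT, a box bound by NF-Y that is called the Y box in class I promoters, was matched in all 4 runs, in that form or as ATTGG, and was the only match in Tap1.

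RefSeq promoters, of 300 bases from 250 before to 50 after the start, were matched for 9 of the 10 genes, all but Tap2, and searched on both strands. The full element, GAAA and GAAA with 2 bases between them, was in 2 of the 9 (B2m and H2-T23) and in 3.44% of the 32851 promoters of the table. AANNGAAA was in 4 of the 9, the 4 class I chains, and in 23.9% of all. The kappa B form with GGG and TTCCC around 2 bases was in 2 (H2-K1 and H2-D1) against 1.75%, and the form with GGG and TTTCC around 2 bases in 1 (B2m, on the other strand) against 1.63%. TTCNNNGAA, a STAT site, was in 1 (Psmb8) against 8.30%, and CCAAT in 7 against 37.4%. The CArG box, the SRF site, was in 0 of the 9 and in 1.63% of all promoters. The 1 STAT match among the 9 genes is near the share over all promoters. Neither the core of interferon regulatory factors nor the STAT site was matched in the windows of Tap1, Tapbp, Psmb9 and Psmb10. Only exact letter matches within 300 bases were sought, so a missing match does not show that a site is absent. A link between these motifs and the changes was not tested.

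B2m encodes beta-2 microglobulin, the light chain that every classical class I heavy chain needs to reach the cell surface. It lies on chromosome 2 from 122147686 to 122153083 (GRCm38, plus strand). Its implied mean went from 319.2 normalized counts with GFP to 592.1 with dnMKL1. The authors' deposited table put its log2 fold change at 0.89 (SE 0.31, adjusted p = 0.0141), a 1.85-fold rise with a 95% Wald interval from 1.22 to 2.82.

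H2-K1 and H2-D1 encode the classical heavy chains K and D, which present peptides to CD8+ T cells. H2-K1 (chromosome 17, 33996017 to 34000347, minus strand) had implied means of 389.2 and 458.3 normalized counts in the GFP and dnMKL1 groups. Its deposited log2 fold change was 0.24 (SE 0.31, adjusted p = 0.634 in the authors' deposited table), with an interval of 0.768-fold to 1.81-fold. H2-D1 (chromosome 17, 35262730 to 35267499, plus strand) had implied means of 464.3 and 571.5. In the authors' deposited table its log2 fold change was 0.30 (SE 0.43, adjusted p = 0.660), with an interval of 0.689-fold to 2.20-fold. Neither heavy chain passed, both intervals overlap that of B2m, and the difference from B2m was not tested.

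H2-T23 encodes the heavy chain of Qa-1, a nonclassical class I molecule read by receptors of natural killer cells. It lies on chromosome 17 from 36029773 to 36032855 (minus strand) and had implied means of 43.9 normalized counts with GFP and 59.8 with dnMKL1. The authors' deposited table listed a log2 fold change of 0.45 (SE 0.32, adjusted p = 0.300).

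For these chains the replicate error set what could be called. The largest unadjusted p-value still called in the authors' deposited table was 0.0170, which corresponds to a Wald statistic of 2.39. With its own SE, a change had to reach 1.68-fold for H2-K1, 2.02-fold for H2-D1 and 1.69-fold for H2-T23 before it would be called. For Tapbp the same limit was 1.09-fold.

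Tap1 and Tap2 encode the subunits of the TAP peptide transporter. Tap1 showed the largest change of the 10 genes, from 37.2 normalized counts with GFP to 144.9 with dnMKL1. This is a 3.90-fold rise with an interval from 2.63 to 5.77, with a log2 fold change of 1.96 in the authors' deposited table (SE 0.29, adjusted p = 2.75e-10). Tap2 rose less, from an implied 244.4 to 355.2 normalized counts, or 1.45-fold with an interval from 1.19 to 1.78. For Tap2 the authors' deposited table gave a log2 fold change of 0.54 (SE 0.15, adjusted p = 0.00141). The intervals of the 2 subunits do not overlap, but the difference between them was not tested, since their covariance over libraries is unknown.

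Tapbp encodes tapasin, which bridges TAP and the empty class I molecule. It lies on chromosome 17 from 33915899 to 33929292 (plus strand) and was the most abundant of the 10 by base mean, at 1610 normalized counts in the authors' deposited table. Its implied mean went from 1260 with GFP to 1961 with dnMKL1, 1.56-fold with the narrowest interval of the 10 genes, from 1.45 to 1.68. The deposited log2 fold change was 0.64 (SE 0.05, adjusted p = 3.59e-29 in the authors' deposited table), the smallest p-value among the 10.

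Tap1, Psmb8, Psmb9 and Tap2 lie side by side on chromosome 17. Psmb9 runs from 34181987 to 34187764 on the minus strand, Tap1 from 34187553 to 34197225, Psmb8 from 34197721 to 34201454 and Tap2 from 34203527 to 34216321, the last 3 on the plus strand. RefSeq places the starts of Psmb9 and Tap1 only 226 bases apart, in opposite directions, so their 300-base promoter windows share 275 bases, and the Tap1 run above covers nearly the whole of the shared stretch. In GENCODE their exons also share 212 bases on opposite strands, 3.87% of the exon bases of Tap1 and 5.79% of those of Psmb9. The use of strand in the counting is not stated in the sources used here, so reads from that stretch could count for either gene or for none. GENCODE also places 498 exon bases of Psmb8 (14.7%) opposite exons of Gm20496 and 533 of Tap2 (14.1%) opposite exons of Gm15821, genes with no row analysed here.

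Psmb8, Psmb9 and Psmb10 encode the beta5i, beta1i and beta2i catalytic subunits of the immunoproteasome. Psmb8 had implied means of 25.4 normalized counts with GFP and 24.1 with dnMKL1. Its deposited log2 fold change was -0.07 (SE 0.43, adjusted p = 0.927 in the authors' deposited table), with an interval from 0.531-fold to 1.70-fold. Psmb9, the neighbour of Tap1, had implied means of 8.81 and 15.5, the lowest of the 10 genes. The log2 fold change listed for Psmb9 in the authors' deposited table was 0.81 (SE 0.53, adjusted p = 0.245), and its interval from 0.859-fold to 3.59-fold is the widest. At these counts only changes of at least 2.03-fold for Psmb8 and 2.39-fold for Psmb9 would have been called, so smaller ones were not detectable at this depth and spread.

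Psmb10 (chromosome 8, 105935735 to 105938444, minus strand) moved the other way. Its implied mean fell from 352.5 normalized counts with GFP to 249.2 with dnMKL1, 0.707-fold with an interval from 0.549 to 0.910. The authors' deposited table gave a log2 fold change of -0.50 (SE 0.19, adjusted p = 0.0238). This call did not survive another scaling. Summed over all genes, the implied means were lower with dnMKL1 by a log2 ratio of -0.29, which total-count scaling adds back. Psmb10 was then at -0.21 with an adjusted p of 0.362 (range over the alternatives 0.0225 to 0.362), while the 4 genes that rose still did.

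**Figure D2:**
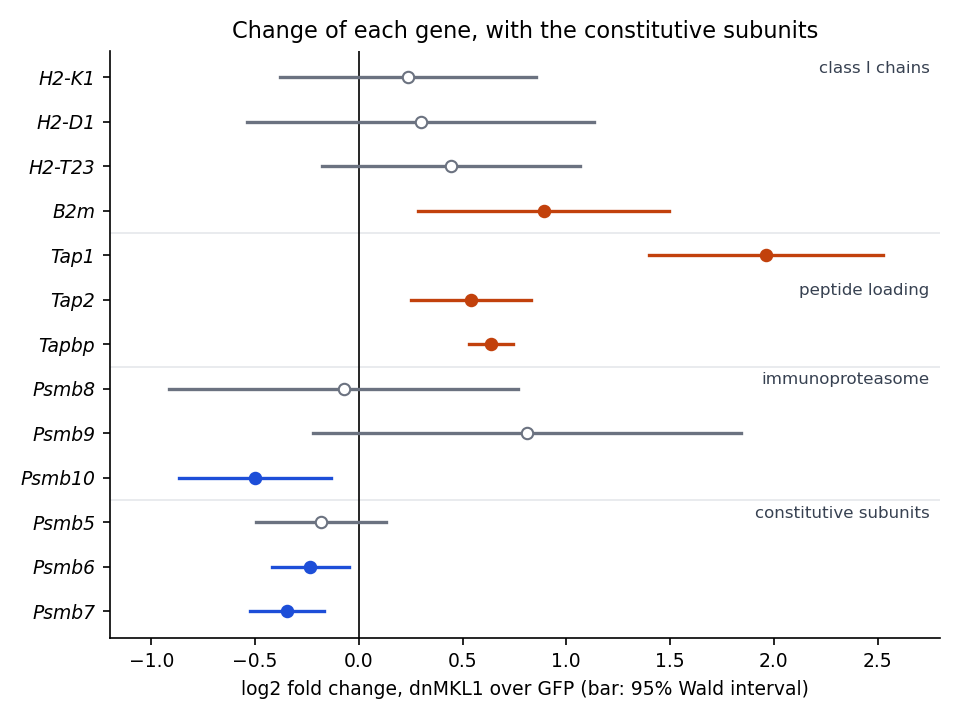
Log2 fold change of dnMKL1 over GFP with its 95% Wald interval (bars) for the 10 genes and for the 3 constitutive subunits, filled where the adjusted p-value was under 0.05 (orange higher, blue lower) and hollow where it was not. The intervals of Tap1, Tap2, Tapbp and B2m lie above 0, and those of Psmb10, Psmb6 and Psmb7 lie below 0 under the authors' scaling; under total-count scaling Psmb6 moves to 0.054 and Psmb10 and Psmb7 lose their calls.

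Each immunoproteasome subunit takes the place of a constitutive one: Psmb8 that of Psmb5, Psmb9 that of Psmb6 and Psmb10 that of Psmb7. Levels per kilobase of the longest GENCODE transcript were compared for these pairs. Psmb5 stood at 895.2 normalized counts per kilobase against 13.0 for Psmb8, a ratio of 69.0. Psmb6 stood at 2612 against 4.21 for Psmb9, a ratio of 620.5 that became 352.1 with the longest protein-coding transcripts and 221.1 with the median transcript length. Psmb10 was closer to its partner, at 229.5 against 571.6 for Psmb7, a ratio of 2.49, or 6.12 with the coding transcripts. Immunoproteasome transcripts were thus the minority in all 3 pairs in both groups, with Psmb8 at 1.38% of its pair with GFP and 1.49% with dnMKL1, Psmb9 at 0.108% and 0.223%, and Psmb10 at 29.6% and 27.4%, all per kilobase of the longest transcript.

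The constitutive partners had negative log2 fold changes under the authors' scaling. Of Psmb5, Psmb6 and Psmb7, 2 fell and 0 rose in the authors' deposited table, against 17.4% and 16.6% of all genes tested. None was positive at an unadjusted Wald p-value under 0.05. Psmb6 and Psmb7, the 2 that fell, have base means from 1000 to 10000, where 797 of the 1986 genes tested were called lower. The deposited log2 fold changes were -0.23 (SE 0.09, adjusted p = 0.0415) for Psmb6 and -0.35 (SE 0.09, adjusted p = 7.88e-04) for Psmb7 in the authors' deposited table; under total-count scaling neither was called and Psmb6 changed sign, to 0.054. Psmb10 and Psmb7 therefore had similar values side by side, -0.50 and -0.35, and a difference between them was not tested.

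Across the 10 genes, the order of levels per kilobase of the longest transcript was Tapbp at 555.6 normalized counts, B2m at 529.8, H2-D1 at 246.4, Psmb10 at 229.5, H2-K1 at 226.1, Tap2 at 87.1, Tap1 at 23.3, H2-T23 at 19.6, Psmb8 at 13.0 and Psmb9 at 4.21. Neighbours within the spread between libraries were Tapbp and B2m, H2-D1 and Psmb10, Psmb10 and H2-K1, and Tap1 and H2-T23. With the median transcript length in place of the longest, 8 of the 10 levels moved by over 1.5 times and the order changed: Tapbp stood at 2481, H2-D1 at 923.2, Tap2 at 793.0 and B2m at 529.8. With the longest protein-coding transcripts H2-T23, at 35.2, passed Tap1, at 30.8.

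The spread between libraries was read from the deposited SEs, by solving each for the dispersion of the count model and taking its square root as a coefficient of variation. Such a value is the one the authors' fit used and not a SD of observed libraries. It was 34.1% for H2-K1, 46.5% for H2-D1, 31.8% for H2-T23 and 33.4% for B2m. It was 28.8% for Tap1, 15.1% for Tap2 and 5.38% for Tapbp, and 42.5%, 49.3% and 19.5% for Psmb8, Psmb9 and Psmb10. H2-K1, H2-D1 and B2m thus varied more than most genes of like abundance. Among the 6515 genes tested with a base mean from 100 to 1000, the median spread was 11.8%, and 96.7% of them had a smaller spread than H2-K1, 98.3% a smaller one than H2-D1 and 96.5% a smaller one than B2m. Tapbp stood at the other end, with only 1.41% of the 1986 genes from 1000 to 10000 below it.

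Markers of several other cell types also had a wide spread. The 12 endothelial markers ran from 25.4% to 57.4% with a median of 34.9%, all 12 above the median of their abundance class. The 9 macrophage and dendritic markers with an adjusted p-value, of lower abundance, ran from 24.1% to 51.3% with a median of 34.6%. Among genes with a base mean from 100 to 1000, the 5 mural markers ran from 19.9% to 33.5% and the 5 fibroblast markers from 14.8% to 24.6%, all above the class median. The 8 cardiomyocyte markers, of higher abundance, ran from 10.6% to 18.8%. Genes of the interferon response, described below, also had a wide spread. The 4 of the interferon gamma list with a base mean from 100 to 1000 ran from 22.6% to 28.5%, all above the class median. The 16 type I genes with an adjusted p-value, most of lower abundance, had a median of 40.6%. Counting error made up between 0.893% (H2-D1) and 2.11% (B2m) of the variance behind the SEs of H2-K1, H2-D1 and B2m.

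**Figure D3:**
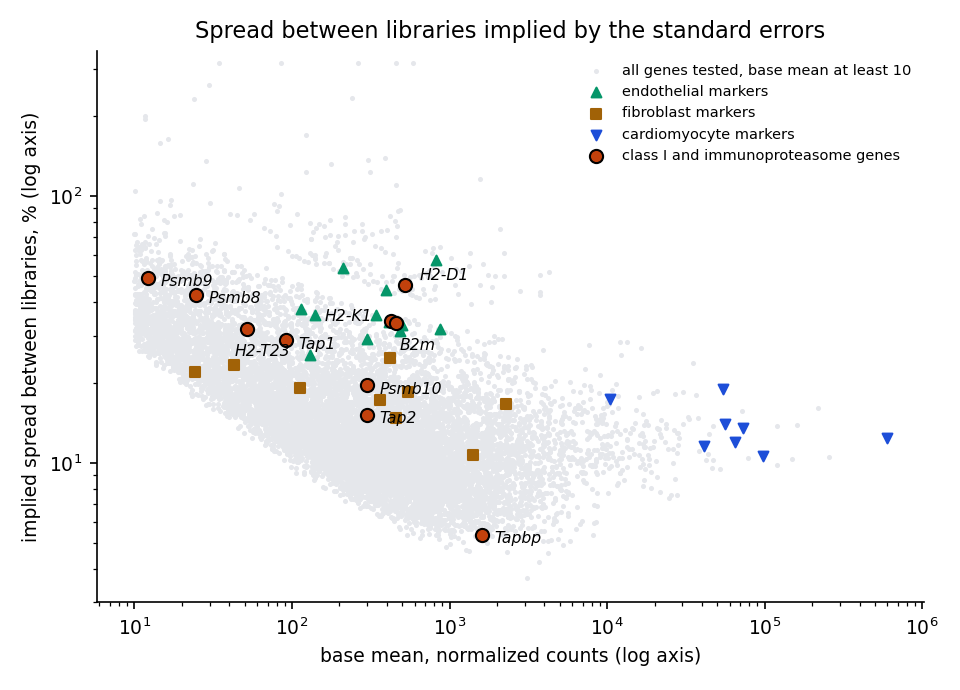
Implied spread between libraries (percent, log axis) against base mean in normalized counts (log axis), for all tested genes whose base mean was 10 or more (grey), the 10 class I and immunoproteasome genes (circles) and markers of 3 cell types. H2-K1, H2-D1 and B2m lie at 33.4% to 46.5%, within the range of the endothelial markers, and macrophage and dendritic markers, which are not drawn, span that range too. Tapbp sits at the lower edge, at 5.38%.

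Markers of other cells were measured because such cells are rich in class I transcripts. The 12 endothelial markers summed to 4678 normalized counts with GFP and 4769 with dnMKL1, with 0 called in the authors' deposited table and none under 0.05 before adjustment. With its own SE, a change had to reach 0.585 on the log2 scale for Flt1, the smallest limit of the 12. For Fabp4, the largest, the limit was 1.251. Smaller changes would not have been called, so the 0 calls do not show that these 12 markers were unchanged. The largest base mean among them was that of Kdr, 875.7 in the authors' deposited table. Of 12 macrophage and dendritic markers 1 rose (Cd68) and 0 fell, with 1 negative and 1 positive at an unadjusted p-value under 0.05, and their sum was 180.7 with GFP and 165.8 with dnMKL1. Lymphocyte markers were near 0, at 8.10 and 8.97 in sum over 11 matched genes, with Cd3e, Nkg7 and Klrb1c listed at 0. Of 10 fibroblast markers 4 rose (Gsn, Col1a1, Col1a2 and Col3a1) and 0 fell, against 16.6% and 17.4% of all genes tested. The sum of the 10 was 4437 with GFP and 6890 with dnMKL1. Of 8 mural markers 2 rose and 1 fell (18208 and 15872 in sum). Acta2 was the marker that fell, from an implied 10454 to 4999 normalized counts. Of the 8 log2 fold changes 7 were positive and 1 negative. The part of these cells in the changes of B2m, Tap1, Tap2 and Tapbp was not tested.

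Class II genes, which mark professional antigen-presenting cells, stayed near the detection limit. The 9 genes summed to 41.2 normalized counts with GFP and 39.7 with dnMKL1, 6 had an adjusted p-value, and 0 were called in the authors' deposited table, with 1 negative at an unadjusted p-value under 0.05. H2-Eb1 had the largest base mean, 13.2, with a log2 fold change of -1.03 (SE 0.49, adjusted p = 0.0929 in the authors' deposited table).

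The other class I heavy chains had few or no counts. Of 22 listed, 20 were matched in the table, 9 of them listed at 0, and 5 had an adjusted p-value. None of the 5 was called by the authors' Wald test, 0 had an unadjusted p-value under 0.05, and their log2 fold changes ran from 0.13 to 1.00. H2-T24 had the largest base mean, 29.7 in the authors' deposited table, and a log2 fold change of 0.40 (SE 0.32, adjusted p = 0.367).

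These copies bear on the counts of H2-K1, H2-D1 and H2-T23, since reads that match several genes can be dropped or split; what this did to the counts of the copies themselves was not tested. Of the 50-base words in the GENCODE transcripts of H2-K1, 90.4% occurred in no transcript of another gene, against 87.2% for H2-D1 and 85.5% for H2-T23. With words of 75 bases the shares were 96.9%, 94.4% and 94.1%. H2-K1 shared 141 of its 50-base words with H2-D1, or 4.08% of its own and 5.44% of those of H2-D1. B2m and Psmb10 shared none at either length. Tapbp had the lowest unique share, 76.8%, mostly through Gm19412, a gene on the opposite strand that covers 24.9% of its exon bases and has no row analysed here. Zbtb22, which has one, shares 149 exon bases (4.11%) with Tapbp on the same strand.

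Class I-like proteins that also bind beta-2 microglobulin were the best measured relatives. Of 5 genes 4 were tested. By the authors' Wald test 2 of them rose and 1 fell, against 16.6% and 17.4% of all genes tested. Cd1d1, which presents lipids to natural killer T cells, had a log2 fold change of 0.65 (SE 0.13, adjusted p = 7.38e-06), and Hfe, a regulator of iron uptake, one of 0.54 (SE 0.13, adjusted p = 1.48e-04), both in the authors' deposited table. Fcgrt, the neonatal Fc receptor, fell by 0.39 on the log2 scale (SE 0.13, adjusted p = 0.0105 in the authors' deposited table) and was no longer called under total-count scaling, at -0.097.

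Genes for folding and trimming in the endoplasmic reticulum moved little under the authors' scaling. Of 7 genes 1 rose and 0 fell in the authors' deposited table, against 16.6% and 17.4% of all genes tested. At an unadjusted Wald p-value under 0.05, 0 were negative. All 7 lay between -0.09 and 0.37 in log2 fold change. Under total-count scaling 6 were called higher, against 40.4% of all genes tested. The gene that rose under the authors' scaling was Pdia3, the disulfide isomerase of the loading complex, at 0.27 (SE 0.09, adjusted p = 0.00864 in the authors' deposited table). Canx (calnexin), which holds new heavy chains, was the most abundant and had a value of -0.09 (SE 0.09, adjusted p = 0.501 in the authors' deposited table), or 0.20 under total-count scaling. Tap1, Tap2 and Tapbp each had a larger log2 fold change than any of these 7 genes. The interval of the gene at 0.37 reached 0.74, past the values of Tap2 and Tapbp. No test of a difference was made.

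Activators and assembly factors of the proteasome were lower in part under the authors' scaling and not under total-count scaling. Of 9 genes 4 fell and 0 rose in the authors' deposited table, with 6 negative and 0 positive at an unadjusted p-value under 0.05, and the median log2 fold change was -0.24; under total-count scaling the median was 0.052, with 2 called higher and 1 lower. For comparison, under the authors' scaling 797 of the 1986 tested genes with a base mean from 1000 to 10000 were called lower. From 100 to 1000, where 5 of the 9 lie, including Psmg1 and Psmg2, it was 1257 of 6515. From 10 to 100 it was 252 of 3273. Psme1, a subunit of the PA28 cap that interferon gamma raises, fell by 0.42 (SE 0.09, adjusted p = 5.17e-05 in the authors' deposited table) and lost its call under total-count scaling. Psmg1, an assembly chaperone, fell by 0.54 (SE 0.10, adjusted p = 1.52e-06 in the authors' deposited table).

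**Figure D4:**
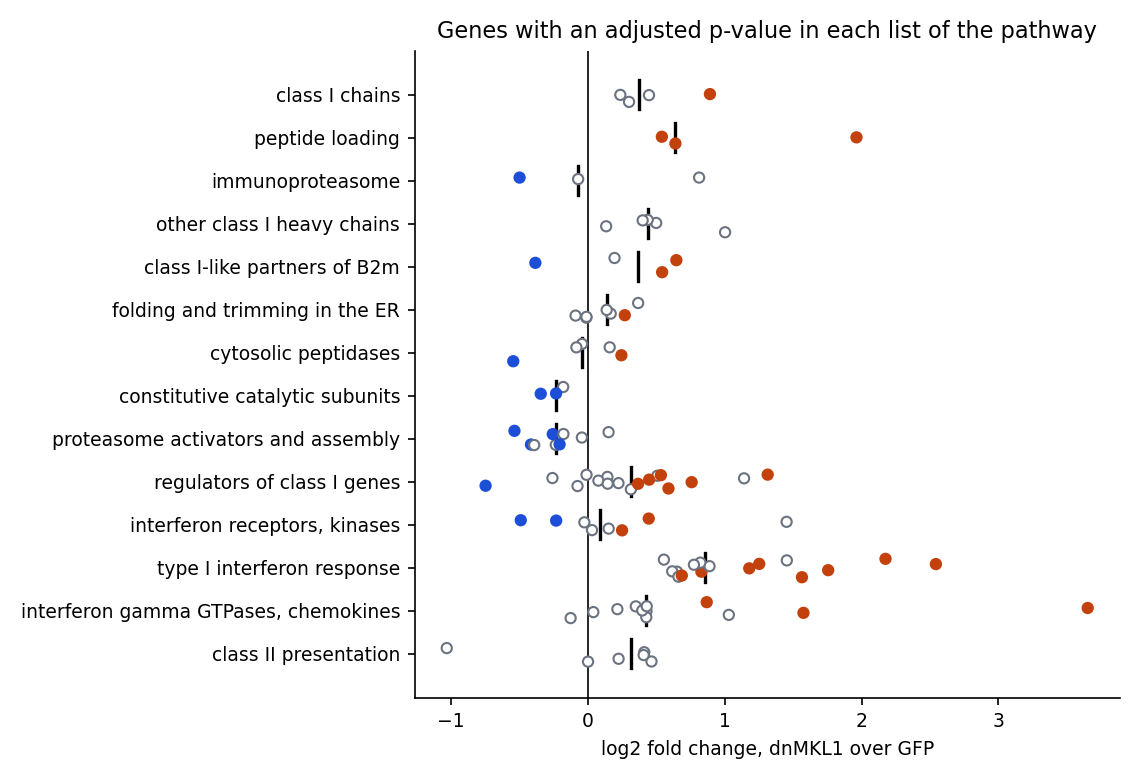
Log2 fold change of dnMKL1 over GFP for every gene with an adjusted p-value in each list (points; filled orange higher, filled blue lower, hollow not called) with the list's median (black bar), under the authors' scaling. The loading genes lie between 0.54 and 1.96, the type I interferon genes between 0.55 and 2.54, and the constitutive proteasome subunits below 0, where total-count scaling would move Psmb6 to 0.054.

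Transcription factors known to act on class I genes were mixed. Of 17 genes 6 rose and 1 fell in the authors' deposited table, against 16.6% and 17.4% of all genes tested. Under total-count scaling 11 were called higher, against 40.4% of all genes tested. Irf7, an interferon regulatory factor, had a log2 fold change of 1.31 (SE 0.28), Stat2 one of 0.76 (SE 0.14) and Rela, the p65 subunit of NF-kappa B, one of 0.45 (SE 0.10) in the authors' deposited table, with adjusted p-values of 2.84e-05, 9.26e-07 and 1.36e-04. The RFX complex, which binds class I promoters next to the Y box, was split, with Rfx5 at 0.59 (SE 0.11, adjusted p = 1.25e-06) and Rfxank at -0.75 (SE 0.14, adjusted p = 9.95e-07) in the authors' deposited table. Nlrc5, the class I transactivator, is given here after its values were seen. It had a base mean of 3.50 and a log2 fold change of 1.14 (SE 0.74, adjusted p = 0.245 in the authors' deposited table), too few counts to place it.

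Genes of the type I interferon response were partly higher. Of 18 genes 16 had an adjusted p-value, and 8 rose and 0 fell in the authors' deposited table, with 11 positive and 0 negative at an unadjusted p-value under 0.05. Their median log2 fold change was 0.86, and their sum was 419.5 normalized counts with GFP and 819.9 with dnMKL1. Isg15, a ubiquitin-like modifier, had a log2 fold change of 2.17 (SE 0.52), and Ifi44 one of 1.76 (SE 0.46), in the authors' deposited table. Both rest on low counts. Implied means with GFP and dnMKL1 were 3.81 and 17.2 normalized counts for Isg15, and 7.52 and 25.4 for Ifi44. Of 12 GTPases and chemokines of the interferon gamma response 3 rose and 0 fell, against 16.6% and 17.4% of all genes tested. At an unadjusted Wald p-value under 0.05, 4 were positive and 0 negative. The 3 that rose were Gbp6 at 1.57 (SE 0.26), Iigp1 at 0.87 (SE 0.27) and Cxcl10 at 3.65 (SE 1.00) in the authors' deposited table. Cxcl10 rests on implied means of 0.935 and 11.8 normalized counts. Ifnb1 and Ifng, the ligands, were listed at 0.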

How the data were processed

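Reads were aligned with STAR and counted per gene with featureCounts, per the labels' protocols; the submitters' processing notes name STAR 2.5.3a, Subread 1.5.2 and mm10. The annotation, the strand setting and the model are not given in the sources used here. The one table analysed is the authors' comparison, in DESeq2 format per the file headers. Its base mean is a signal that the authors averaged over all libraries in normalized counts, its fold change and SE are deposited on the log2 scale, its Wald statistic is a deposited score, and its p-value and adjusted p-value are the authors' own.

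The deposited adjusted p-value under 0.05 was the test, over 14056 genes. Group means, 95% Wald intervals, dispersions solved from the SEs and size factors from genes read once in 1 library were computed in Python 3.11.15. Simulated data were used to check the calls, the inversion of the dispersion formula and the shift of total-count scaling. The size factors, group means and intervals were not checked in this way. The design was written for the authors' fit because counts per library were not analysed here. Sequences came from RefSeq (GRCm38.p6), positions and transcripts from GENCODE on GRCm38; the authors may have used another annotation. Of the listed symbols, Adgre1 was matched through a RefSeq synonym. One gene the rule for names would give is not reported here. The genes and all lists were chosen with earlier results of these data known. Outside the 10 genes, each list's up to 6 called genes with the smallest p-values and its most abundant gene could be named. Alternatives were other thresholds, scalings, minimum folds and base means. Wald intervals rest on the deposited SEs, which hold both counting error and the spread between libraries.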

Additional observations from a re-analysis of the deposited data

How the results depend on the processing

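No paired analysis was possible because the table gives groups only, without libraries, and for the same reason no fit without 1 library was run; whether 1 library decides a value is unknown. The 4 genes that rose became 1 (Tap1) with a minimum absolute log2 fold change of 1, and moved by less than 1.5 times under the other alternatives. The 1 gene that fell, Psmb10, became 0 with that minimum, 0 at an adjusted p-value under 0.01 and 0 under total-count scaling, the last by the added shift itself. The median of the 10 genes ran from 0.42 to 0.78 and stayed positive. Total-count scaling made H2-T23 called, at 0.73 (adjusted p = 0.0446, range over its alternatives 0.0446 to 0.366), and an adjusted p-value under 0.01 removed B2m. Alternatives for other genes and lists were chosen after seeing the data. Total-count scaling reversed Psmb8 to 0.22 and, of 53 other named genes, 8: Canx to 0.20, Tpp2 to 0.20, Psmb6 to 0.054, Psme3 to 0.030, Psmg2 to 0.080, Psme4 to 0.11, Jak1 to 0.055 and Ptprc to 0.17, none past the threshold. It also took the interferon response from 8 to 13 genes higher, the gamma list from 3 to 5 and fibroblast markers from 4 to 7. Over all genes tested, the share called higher went from 16.6% to 40.4% under that scaling. Recovered size factors left all 10 spreads within 25% of their value. Over all genes, 4792 calls became 942 with the minimum fold of 1. Which scaling is closer to RNA per cell was not tested.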

Other observations

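Receptors and kinases of interferon signalling were listed together with the ligands Ifnb1 and Ifng and the inhibitor Socs1. Of these 10 genes 8 had an adjusted p-value, and 2 rose and 2 fell in the authors' deposited table. Under total-count scaling 4 were called higher and 0 lower, against 40.4% and 6.6% of all genes tested. Ifngr2, a subunit of the interferon gamma receptor and the most abundant of them, fell by 0.49 on the log2 scale (SE 0.11, adjusted p = 9.20e-05), and Jak1, a kinase shared by both interferon receptors, fell by 0.23 (SE 0.09, adjusted p = 0.0388), in the authors' deposited table. Jak1 was at 0.055 under that scaling. Tyk2, the kinase of the type I receptor, rose by 0.44 (SE 0.09, adjusted p = 1.34e-05), and Ifnar1, a subunit of that receptor, by 0.25 (SE 0.10, adjusted p = 0.0479 in the authors' deposited table, and 0.0524 after median-centring).

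Cytosolic peptidases trim or destroy peptides before transport. Of 5 genes 1 rose and 1 fell in the authors' deposited table, near the 16.6% and 17.4% of all genes tested. Under total-count scaling 3 were called higher and 0 lower, against 40.4% and 6.6% of all genes tested. Lap3, an aminopeptidase that interferon gamma raises, fell by 0.55 (SE 0.13, adjusted p = 1.91e-04), and Blmh rose by 0.24 (SE 0.07, adjusted p = 0.00407), in the authors' deposited table.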
